A study of Mus musculus with 6 samples.

Results

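Chromatin accessibility was examined at the peaks of open chromatin that the authors' annotation places in an exon or an untranslated region (UTR) of a gene. Members were the peaks whose location in the authors' deposited table begins with Exon, 3' UTR or 5' UTR. They number 1665 of 70494 peaks: 971 in the exon class, 649 in the 3' UTR class and 45 in the 5' UTR class. The rule reads the location alone and no measured value. The cells were definitive endoderm, the germ layer that gives rise to gut, liver and pancreas, derived from mouse epiblast stem cells of the 7H OTX2-dTAG-EGFP line (BL6/129 hybrid). In both groups the cells were held for 16 h in 40 ng/ml Activin A and 3 uM CHIR, and for a further 24 h in 100 ng/ml Activin A and 100 nM LDN. For 24 h from the primitive streak stage, 3 libraries received DMSO, the vehicle, and 3 received dTAG13, a small molecule that sends dTAG-fused OTX2 for degradation. All 6 libraries thus carry the tagged OTX2, come from a single line, and were made from 50000 sorted live cells each. The series' design text describes the libraries of a group as technical replicates, so errors and p-values measure the spread between libraries, which need not include that between cultures.

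ATAC-seq inserts sequencing adapters where DNA is free of nucleosomes. The strongest sites are usually promoters, and many other sites are enhancers in introns or between genes. Enhancers can also lie in exons, where the same bases encode protein or belong to the messenger RNA, and may act on a neighbouring gene rather than on the gene that holds the exon. OTX2 is a homeodomain transcription factor of the epiblast, the anterior endoderm and the anterior neural plate, and binds the consensus GGATTA. The study compares the groups to ask which accessible sites depend on OTX2.

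The sequences most relevant to that question are the GGATTA sites of peaks that lost signal with dTAG13. The 5 named peaks with such a site within 100 bases of the midpoint, and the 3 other peaks whose site lies in coding sequence, are shown as 30 bases of mm10 around it. The name is that of the gene bearing the exon or UTR. Each is written 5' to 3' on the strand that reads GGATTA, with that consensus in capitals.
Car2, chr3:14898129-14898158, minus strand, outside exons: gagaccacaggaGGATTAaatcccaggcct
Hal, chr10:93518828-93518857, minus strand, 3' UTR: aatgtttgcaaaGGATTAtcttgattgata
Cyth1, chr11:118170864-118170893, minus strand, coding sequence: aagagccccgcgGGATTAtccccctggaga
Fam186a, chr15:99943156-99943185, minus strand, coding sequence: ccaaggcaaagaGGATTAatttgacccctc
Sptlc2, chr12:87309414-87309443, plus strand, 3' UTR: ctggttaaatagGGATTAcaaggggggcaa
Dlec1, chr9:119110156-119110185, plus strand, coding sequence: aatctctacagaGGATTActacactgatcc
Fbxo16, chr14:65303244-65303273, minus strand, coding sequence: atttcacaaataGGATTAaggatcagggta
Chtop, chr3:90503162-90503191, plus strand, coding sequence: gcaagcctctctGGATTAtgggtaggcctc

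The locations were compared with the exons of GENCODE mouse release 21 on the same build. The midpoint lay in an annotated exon for 1303 members (78.3%), and 1040 (62.5%) lay wholly in exons. Only 3 overlapped no exon of that release, and 78 (4.68%) had under 10% of their bases in one. The exon class is therefore partly a class of exon edges: the median share of a peak's bases in exons was 84.8% there and 100% in the 3' UTR class. In the exon class, 612 peaks were at inner exons, 341 at last exons, 15 at exons of single-exon transcripts and 3 at the first exon of several. This order follows from the annotation, which gives peaks near a start site to the promoter class first. The transcripts were protein-coding for 655 peaks, noncoding for 227 and of the retained-intron type for 74. The gene whose exon is open and the gene with the nearest start site, which the authors' deposited table names, were the same for 967 members (58.1%). Names below are those of the gene bearing the exon unless stated, with the nearest-start gene given once where it differs.

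Signal at these peaks was low. In the authors' deposited table, members had a median of 6.66 normalized counts (mean of the 6 libraries, quartiles 4.29 and 11.2), against 7.33 over all peaks. It was under 5 for 565 members (33.9%), against 32.3% of all peaks. Peaks had a median length of 124 bases, against 131, and a median GC content of 56.0%, against 54.8%. Bases that the reference marks as repeats made up most of the sequence of 39 members (2.34%), against 6.10% of all peaks. Of the tissue's markers, all 10 definitive endoderm genes examined had a promoter peak, as did 4 of 6 mesoderm, 3 of 4 epiblast, 2 of 2 neural and 2 of 4 extraembryonic endoderm genes. An open promoter is not expression, and none of these genes had an exon or UTR peak.

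None of the 5 strongest members passed the test, and their log2 changes ran from -0.09 to 0.39. The authors' deposited table gives no value per library, so group means were derived from its mean and fold change. The strongest was in the 3' UTR of Lars2, the mitochondrial leucyl-tRNA synthetase (nearest start Limd1), with an implied mean of 387 normalized counts in DMSO and 365 in dTAG13. Its log2 fold change in the authors' deposited table, dTAG13 over DMSO, was -0.09 (SE 0.10). The next was an exon of the noncoding gene Gm29456, with 93.1 in DMSO and 96.4 in dTAG13. The other 3 were the 3' UTR of Pex26, a peroxisome biogenesis factor (79.1 and 103, nearest start Gm44014), an exon of Prdm2, a histone methyltransferase gene (64.0 and 82.0, nearest start Gm13039), and the 3' UTR of C87436 (66.3 and 77.0, nearest start A430078I02Rik).

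**Figure D1:**
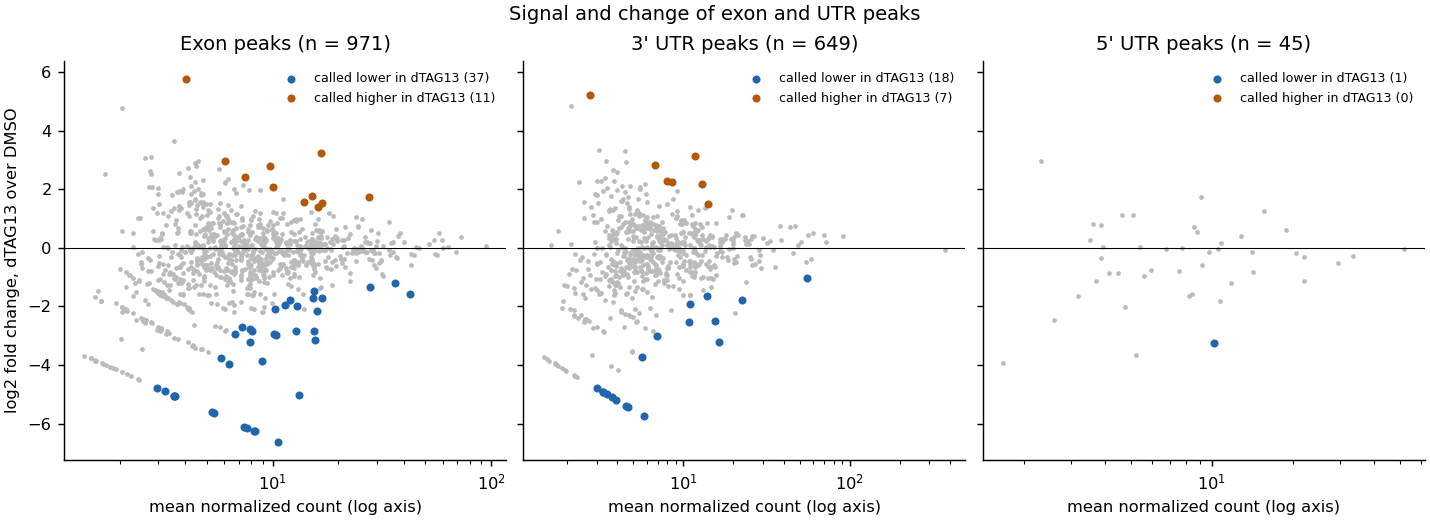
Mean normalized count (x, log axis) against the log2 fold change of dTAG13 over DMSO (y) for each peak of the 3 classes, with peaks at an adjusted p under 0.05 in blue (lower in dTAG13) or orange (higher). Called peaks number 37 and 11 in the exon class, 18 and 7 in the 3' UTR class, and 1 and 0 in the 5' UTR class, and the strongest peaks lie near 0.

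The main comparison asked which exon and UTR peaks changed when OTX2 was degraded. By the adjusted p of the authors' deposited table (under 0.05), 56 of 1638 tested members were lower in dTAG13 and 18 were higher. These are 3.42% (95% Wilson interval 2.64 to 4.41) and 1.10% (0.696 to 1.73). Of all 69128 tested peaks, 3.79% were lower and 1.47% higher, so that both shares of the members were near the background. The total was 4.52% of members against 5.26% of all peaks, and an unadjusted p under 0.05 was given for 278 of 1665 members (16.7%), against 19.7% of all peaks. The change was at least 1 on the log2 scale in all 74 called members. Of these calls, 75.7% were lower. With the median of all peaks set to 0, the counts were 44 lower and 41 higher (51.8% lower), and with each GC decile of the peaks centred on its own median they were 38 and 43 (46.9% lower). With the median of the peaks in both groups' lists set to 0 they were 68 and 15 (81.9% lower). In the same order, all peaks gave 2056 lower and 1958 higher, 1380 and 2254, and 3159 and 790. The majority of losses therefore holds only under some zero points, among all peaks as among the members. The median log2 fold change was -0.17 (quartiles -0.93 and 0.42), against -0.18 over all peaks.

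Intron peaks were called lower more often, at 1003 of 17907 (5.60%, 5.27 to 5.95), and promoter peaks within 1 kb of a start less often, at 216 of 21552 (1.0%, 0.878 to 1.14). Neither Wilson interval overlaps that of the members, and the interval covers counting error over peaks alone. Introns had a lower median GC content, 51.9%, and a lower median mean count, 5.54, than exon and UTR peaks, and the part of these in the difference was not tested. Among the members, the exon class had 37 lower and 11 higher of 955 tested (3.87% and 1.15%), and the 3' UTR class 18 and 7 of 639 (2.82% and 1.10%). The 5' UTR class had 1 lower and 0 higher of 44, the latter allowing a share of up to 6.82%. At inner exons 28 of 602 were lower (4.65%, 3.24 to 6.64), and at last exons 8 of 335 (2.39%, 1.21 to 4.64), with overlapping intervals. Of peaks whose midpoint was in an exon, 37 of 1281 were lower (2.89%, 2.10 to 3.96), against 19 of 357 whose midpoint was outside (5.32%, 3.43 to 8.16). The latter had a higher median mean count, 8.76. Where the midpoint was in coding sequence, 7 of 441 were lower (1.59%, 0.771 to 3.24) and 4 higher.

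Peak width went with the share called. Of members of 200 bases or more, 33 of 327 were lower (10.1%, 7.28 to 13.8), of those of 100 to under 200 bases 19 of 755 (2.52%), and of shorter ones 4 of 556 (0.719%). All peaks showed the same order, with 7.49%, 3.54% and 0.997%. By mean count, the members' share called lower was 2.42% under 5, 2.81% from 5 to under 10, 6.02% from 10 to under 20 and 3.45% at 20 or more. Over all peaks it was likewise highest from 10 to under 20, with 3.16%, 3.98%, 5.39% and 2.82%.

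**Figure D2:**
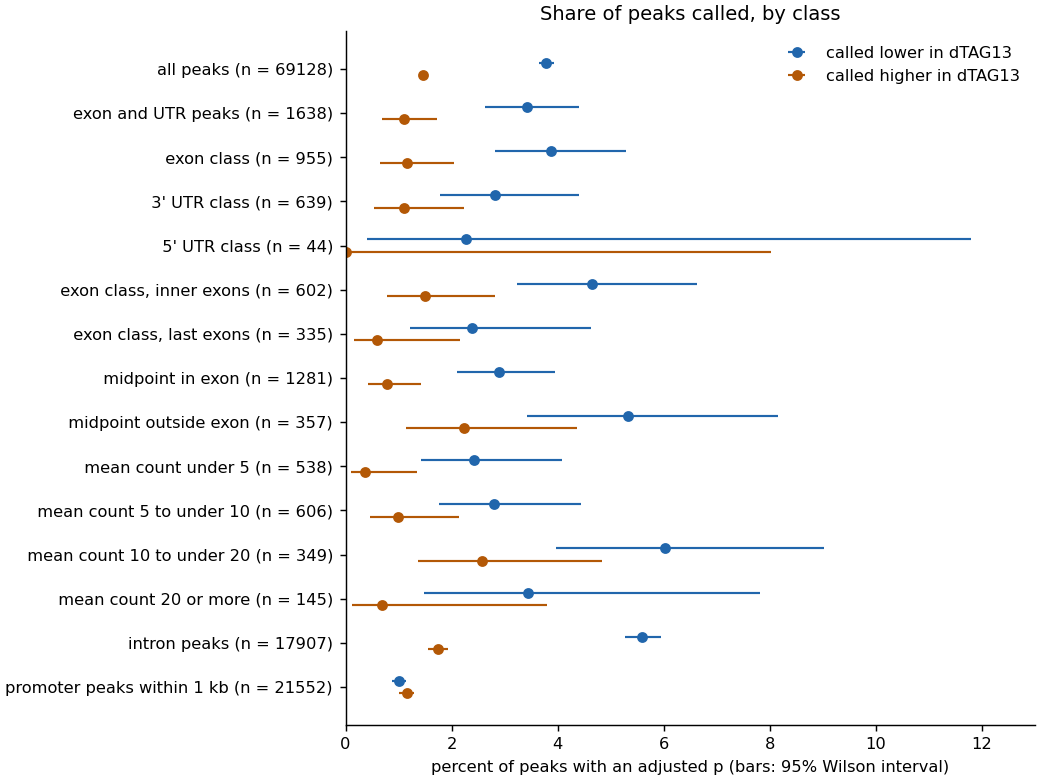
Percent of tested peaks called lower (blue) or higher (orange) in dTAG13 (x) for all peaks, exon and UTR peaks and their subclasses, introns and promoters (y, with the number tested), with 95% Wilson intervals. The share of exon and UTR peaks called lower, 3.42%, lies between that of promoters (1.0%) and that of introns (5.60%).

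Little signal was left with dTAG13 at most called-lower peaks: the implied mean was at most 3 normalized counts in 35 of 56. Their median log2 fold change was -3.21 (quartiles -5.05 and -2.13), or -1.97 with the lower group raised to a floor of 3 normalized counts. In 21 of 56 the implied dTAG13 mean was under 0.25 normalized counts, which is treated here as 0, and for these the fold is a lower bound against that floor, from at least 1.90-fold to at least 6.97-fold lower. The mean count of these 56 peaks ran from 2.96 to 55.2. Of the 56, 50 overlapped only the peak list pooled from DMSO libraries (89.3%) and 6 overlapped both lists, near the 86.9% and 13.1% of all called-lower peaks.

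The exon peak of smallest adjusted p among those lower was at exon 6 of 7 of Car2, which encodes carbonic anhydrase 2 (chr3:14898035-14898236, 17.3% of it in exon). Its implied means were 20.9 normalized counts in DMSO and 0.213 in dTAG13, at least 6.97-fold lower (log2 fold change in the authors' deposited table -6.62, SE 1.27, adjusted p 0.00012). The signal at Car2 was thus near 0 in dTAG13. The peak at exon 10 of 24 of Hace1, a HECT ubiquitin ligase (chr10:45649928-45650269), fell from 28.0 to 3.14 (log2 change -3.16 ± 0.63 SE, adjusted p of 0.000205 by the authors' deposited table). A stronger peak at exon 41 of 53 of Myof, a membrane repair protein of the ferlin family (chr19:37921036-37921516), fell from 63.3 to 21.3 (log2 change -1.57 ± 0.32 SE, adjusted p of 0.000244 by the authors' deposited table), and was still open with dTAG13. The peak at exon 9 of 22 of Ttc12, a factor of dynein arm assembly (chr9:49458589-49458833), had 16.4 in DMSO and 0.214 in dTAG13, at least 5.46-fold lower. Exons held only 17.5% of the Hace1 peak, 32.4% of that at Myof and 24.9% of that at Ttc12. The peak at the antisense noncoding gene 1600020E01Rik (exon 3 of 4, chr6:86532113-86532398, 40.2% in exon) had 16.2 and 0.213, at least 5.40-fold lower. Of the named lower exon peaks, that in Fam186a was coding over its whole length.

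Fam186a carried it in exon 4 of 8 (chr15:99942837-99943331, nearest start Gm23133), with 15.1 in DMSO and 0.213 in dTAG13, at least 5.03-fold lower. The peak at exon 11 of 14 of Cyth1, a guanine nucleotide exchange factor for ARF GTPases (chr11:118170760-118171086, 22% in exon, nearest start Gm24060), had 14.6 and 0.212, at least 4.88-fold lower. Both hold a GGATTA site in the coding sequence shown above.

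In the 3' UTR class, the peak with the smallest adjusted p was in Hal, histidine ammonia-lyase, the first enzyme of histidine breakdown (chr10:93518763-93519076). It fell from 29.5 to 3.19 normalized counts (log2 fold change in the authors' deposited table -3.21, SE 0.63, adjusted p 0.00019). The peak in Tet2, an enzyme that oxidizes methylated cytosine (chr3:133465463-133465748), fell from 26.2 to 4.69 (log2 change -2.48 ± 0.57 SE, adjusted p of 0.00202 by the authors' deposited table). Arnt2, a transcription factor of the bHLH-PAS family (chr7:84248293-84248583), fell from 34.9 to 10.2 (log2 change -1.78 ± 0.41 SE, adjusted p of 0.00235 by the authors' deposited table). These 3 peaks lay wholly in the 3' UTR. With dTAG13 the implied mean at Hal was near the floor of 3 normalized counts, and more was left at Tet2 and Arnt2. Of the 3, only Arnt2 overlapped the list pooled from dTAG13 libraries. In Sptlc2, a subunit of serine palmitoyltransferase (chr12:87309318-87309518, nearest start Ism2), the means were 11.5 and 0.213, at least 3.82-fold lower.

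The 3' UTR class peak of Itga8, integrin alpha 8 (chr2:12182184-12182813, 14.8% in exon), was the strongest of the called members. It fell from 74.0 to 36.3 (log2 change -1.03 ± 0.25 SE, adjusted p of 0.00511 by the authors' deposited table). With each GC decile centred, the Itga8 value was -0.41 and its adjusted p 0.369. The single 5' UTR call was C1qtnf4, a secreted protein of the C1q/TNF-related family (chr2:90889153-90889388), which fell from 18.4 to 1.96 (log2 change -3.23 ± 0.81 SE, adjusted p of 0.0055 by the authors' deposited table). Only 3.81% of the C1qtnf4 peak overlapped an exon.

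Across the 18 called-higher peaks the median change was 2.27 on the log2 scale (quartiles 1.74 and 2.93), or 2.13 with the lower group raised to the floor. Of these, 13 overlapped only the list pooled from dTAG13 libraries (72.2%) and 5 overlapped both, beside 57.5% and 42.5% of all called-higher peaks. The implied DMSO mean was at most 3 normalized counts in 9 of the 18 higher peaks and under 0.25 in 2. For the implied dTAG13 mean of the 56 lower peaks these counts were 35 and 21. Sox30, a SOX factor of male germ cells, had 0.146 in DMSO and 7.88 in dTAG13 at exon 4 of 5 (chr11:45991699-45991778), at least 2.63-fold higher. The 3' UTR of Zcchc2, a zinc-knuckle protein gene (chr1:106032861-106032934), had 0.144 and 5.31, at least 1.77-fold higher.

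The smallest adjusted p of all members belonged to the peak at the last of 3 exons of the noncoding gene Gm28867 (chr1:118362443-118362746, 47.4% in exon). It rose from 3.24 to 30.1 normalized counts (log2 change 3.22 ± 0.59 SE, adjusted p of 4.9e-05 by the authors' deposited table). The peak beside exon 5 of 7 of Serpinb6b, a serine protease inhibitor (chr13:32975045-32975423, 0.528% in exon), rose from 12.8 to 42.6 (log2 change 1.73 ± 0.35 SE, adjusted p of 0.000318 by the authors' deposited table). The 3' UTR class peak of Mill2, an MHC class I-like protein (chr7:18858587-18858820, 29.1% in exon, nearest start Gm45138), rose from 2.40 to 21.2 (log2 change 3.14 ± 0.65 SE, adjusted p of 0.000419 by the authors' deposited table). In DMSO the signal was thus low at Gm28867 and Mill2 and higher at Serpinb6b.

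Further exon gains were at Letmd1, a mitochondrial inner membrane protein (exon 7 of 9, 2.45 in DMSO to 16.9), Camkk1, a kinase of calmodulin-dependent kinases (exon 12 of 15, 6.91 to 23.6), and Etv5, an ETS transcription factor downstream of FGF signalling (exon 7 of 13, 1.37 to 10.7). The authors' deposited table gives their adjusted p as 0.00654, 0.0121 and 0.0334. In the 3' UTR class Hlf, a PAR bZIP transcription factor, rose from 4.63 to 21.2, Trmt61a, the catalytic subunit of a tRNA methyltransferase, from 2.68 to 13.1, and Csf1, macrophage colony-stimulating factor, from 2.95 to 14. The adjusted p of these 3 in the authors' deposited table were 0.00973, 0.0334 and 0.0347. The peak at Letmd1 lay 549 bases from an annotated start site. Only 16.2% of the Camkk1 peak and 7.95% of the Csf1 peak lay in exon.

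**Figure D3:**
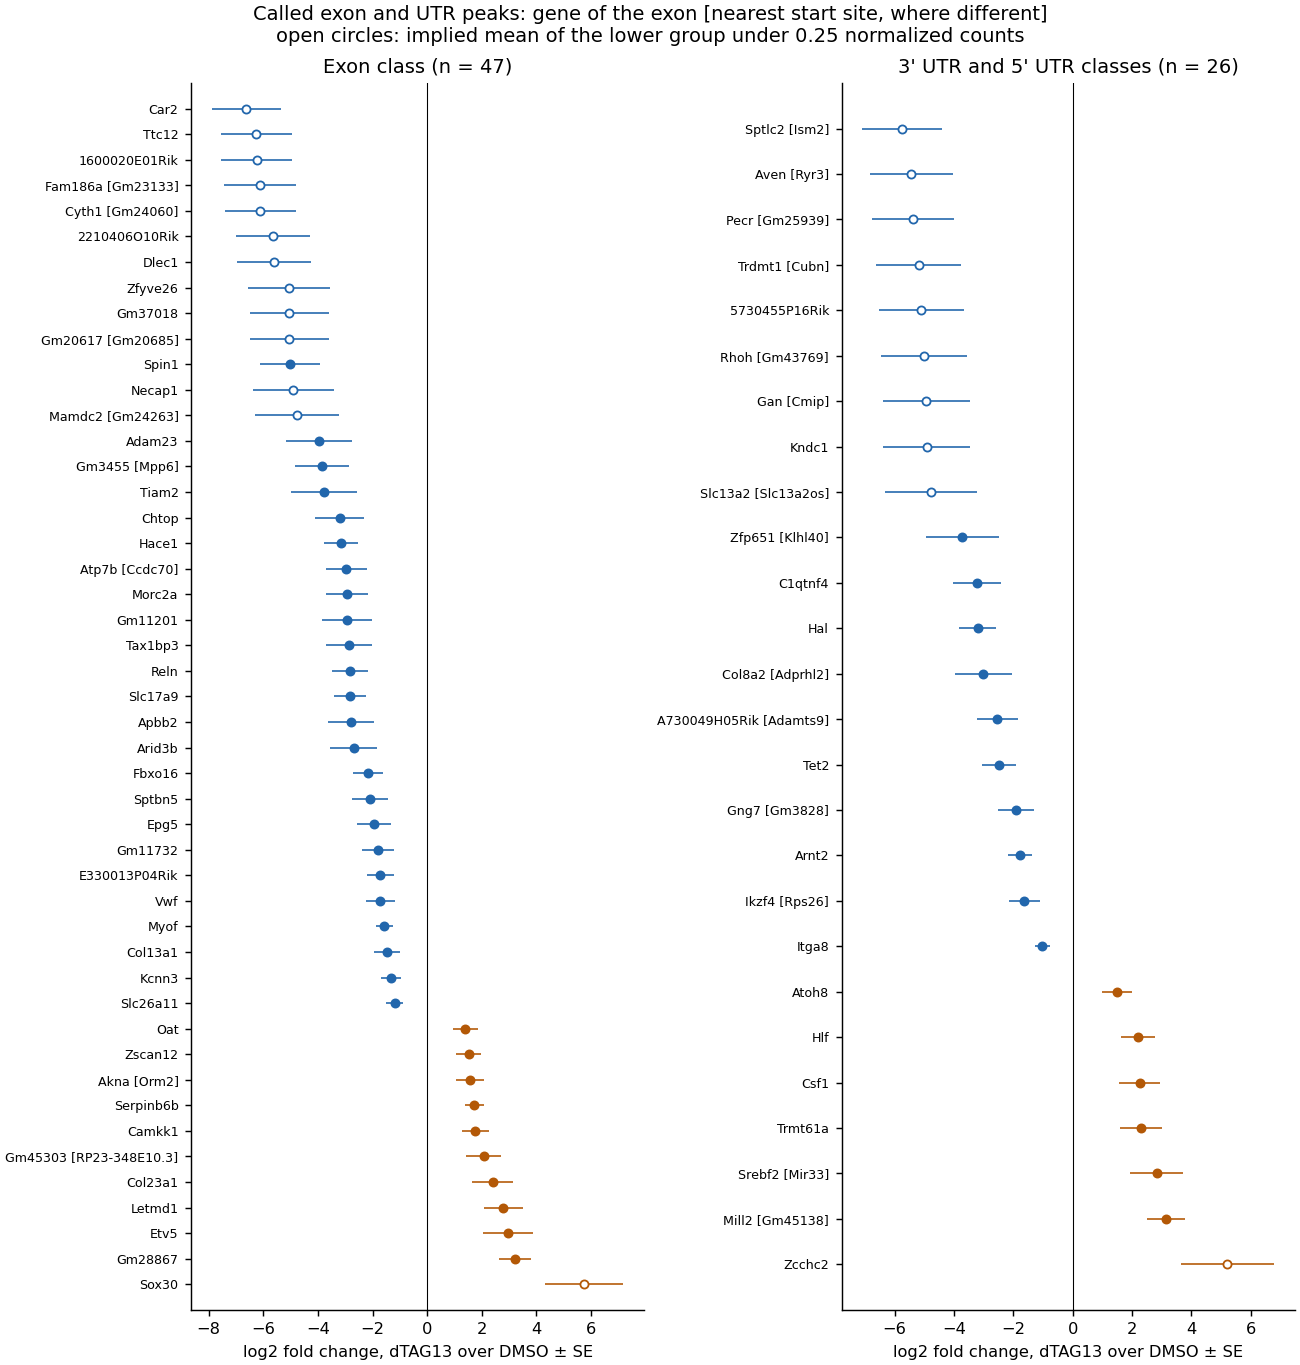
Log2 fold change of dTAG13 over DMSO with its standard error (x) for 73 of the 74 called peaks, by gene bearing the exon or UTR (y, with the nearest-start gene in brackets where it differs), 47 in the exon class and 26 in the UTR classes. Open circles mark the 21 lower and 2 higher peaks whose lower group is near 0, and the values run from Car2 at -6.62 to Sox30 at 5.75.

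The called peaks were set beside the promoters of the genes that hold them, since an exon peak could move with its own promoter. Of the 56 genes with a called-lower peak, 41 had a promoter peak within 1 kb of the start. At the strongest promoter peak of these 41 genes the median change was 0.09 on the log2 scale, with 15 below 0. Promoter peaks were called lower at 2 of the 41 genes and higher at 1. The 2 were 2210406O10Rik, a noncoding gene whose promoter fell by 5.13 on the log2 scale (SE 1.11) in the authors' deposited table, with an adjusted p of 0.000948, and Sptlc2, at a promoter peak other than its strongest. The 1 was Reln, the secreted glycoprotein reelin. Of the 18 genes with a called-higher peak, 13 had a promoter peak, none of them was called in either direction, and the median was 0.13, with 9 of 13 above 0. Few promoter peaks were called in any gene: of all promoter peaks within 1 kb of a start, 1.0% were lower and 1.15% higher. Most genes with a called exon or UTR peak thus had no called promoter peak, which that low share alone would give.

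**Figure D4:**
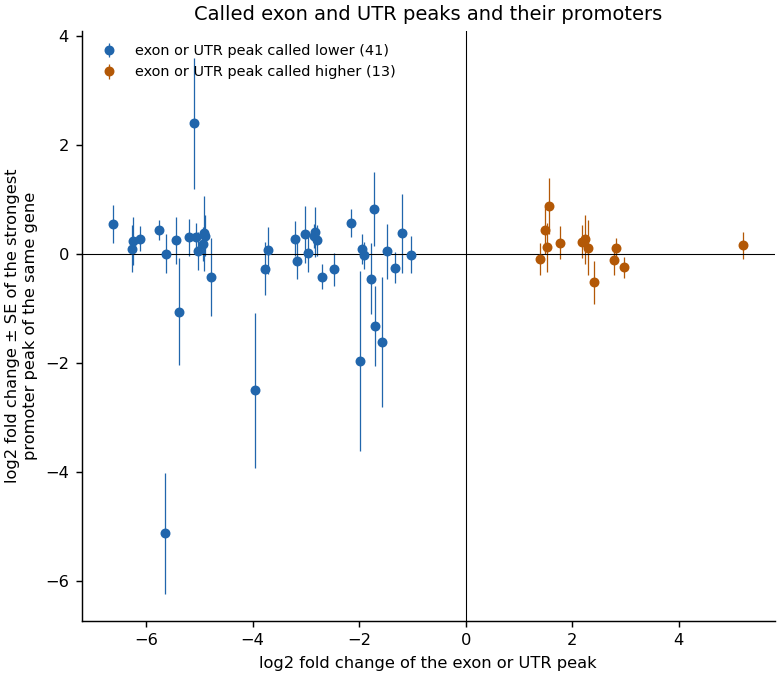
Log2 fold change of each called exon or UTR peak (x) against that of the strongest promoter peak of the same gene with its standard error (y), for the 41 lower (blue) and 13 higher (orange) peaks whose gene has a promoter peak. Most promoter values lie near 0, and the promoter at -5.13 is that of 2210406O10Rik.

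The OTX consensus was counted on both strands within 100 bases of each midpoint. GGATTA was present in 112 of 1665 members (6.73%, 95% Wilson interval 5.62 to 8.03), against 8.81% of all peaks and 11.7% of intron peaks. Among called-lower members it was present in 22 of 56 (39.3%, 27.6 to 52.4), close to the 34.1% of all called-lower peaks. Among called-higher members it was present in 0 of 18, which allows a share of up to 16.7%, and in 1.28% of all called-higher peaks. The same letters read in reverse, ATTAGG, were present in 5.65% of members, in 9 of 56 called-lower members (16.1%) and, like GGATTA, in 0 of 18 called-higher members. These letters can share bases with an OTX site, as in GGATTAGG, which some called-lower members hold, so that the counts are not independent. Seen from the sites, 22 of 108 tested members with GGATTA were called lower (20.4%, 13.9 to 28.9) and 0 higher, with a median log2 fold change of -1.22. Of 1530 tested members without it, 34 were called lower (2.22%, 1.59 to 3.09), with a median of -0.11. Over all peaks with GGATTA 15.1% were called lower. The reversed letters went with lower calls as well, to a lesser degree. Of 92 tested members with ATTAGG 9 were called lower (9.78%, 5.23 to 17.6), against 3.04% of those without it. Over all peaks these shares were 8.70% and 3.42%. Called-lower members also had a lower median GC content, 51.8% against 56.0% of all members, and a greater median length, 225 against 124 bases. The part of these in the shares by consensus was not tested.

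By class, 16 of 62 tested exon peaks with GGATTA were lower (25.8%, 16.6 to 37.9) and 6 of 43 tested 3' UTR peaks (14%, 6.56 to 27.3). The 22 called-lower members hold 23 sites, of which 22 lay inside the peak and 17 within 50 bases of the midpoint. Of the 23 sites, 17 were in an exon, in coding sequence at Cyth1, Fam186a, Fbxo16, Chtop and Dlec1, and 6 were outside exons. The share called lower was 17 of 82 (20.7%) for members with a site in an exon and 5 of 26 (19.2%) for those with all sites outside. The latter are too few to tell whether the shares differ. The share was 5 of 17 (29.4%) where a site was in coding sequence, likewise too few peaks to set it apart from the other shares. For Fbxo16, an F-box protein, the peak at exon 7 of 8 had implied means of 26.0 and 5.87 normalized counts, and the site is centred 1 base from the midpoint.

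Consensus sequences of other factor families were counted in the same windows on both strands, with overlaps between them allowed. Those of endoderm and patterning factors were AGATAA for the GATA family, ACAAAG for the SOX family, TGTTTAC for the FOX family and TAATTA for the LHX family. The others were GGAATG for the TEAD family, AGGTGTGA for the T-box family, TGANTCA for the AP1 family, GGGCGGG for the KLF and SP families, ATGCAAAT for the POU family, and that of CTCF. The GATA consensus was in 14.4% of members and 30.4% of called-lower members, against 15.6% and 30.1% over all peaks. The SOX consensus was in 14.8% and 16.1%, against 16.4% and 25.8%. The CTCF consensus was in 24.6% of members against 17.0% of all peaks, and that of KLF and SP in 10.6% against 15.8%. In intron peaks the CTCF consensus was in 16.7% and that of KLF and SP in 4.39%. Such a match is a description of the letters and not of binding.

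The T-box consensus was counted more often in called-higher members than in the rest, with few peaks behind it. AGGTGTGA was in 5 of 18 (27.8%, 12.5 to 50.9), in 30 of all 1665 members (1.80%) and in 0 of 56 called-lower members, which allows a share of up to 5.36%. It was in 4.63% of all called-higher peaks and 1.71% of all peaks. T-box factors such as Brachyury and Eomes act in the primitive streak. This consensus was singled out after its values had been seen, and rests on 5 peaks. With 50 bases on each side it was in 3 of 18 (16.7%, 5.84 to 39.2), and within the peak itself in 4 of 18 (22.2%). Those of the 4 peaks named above are shown on the strand that reads the consensus, which is in capitals.
Gm28867, chr1:118362550-118362579, minus strand, outside exons: aaagtgtgagaAGGTGTGAgaaggtgggga
Letmd1, chr15:100475516-100475545, minus strand, coding sequence or 3' UTR by transcript: gggggcaggtaAGGTGTGAggagcatggcc
Hlf, chr11:90336991-90337020, minus strand, 3' UTR: tgactaggctgAGGTGTGAtgccctccctc
Csf1, chr3:107743210-107743239, plus strand, outside exons: atagttgggggAGGTGTGAcattcctgtgg

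**Figure D5:**
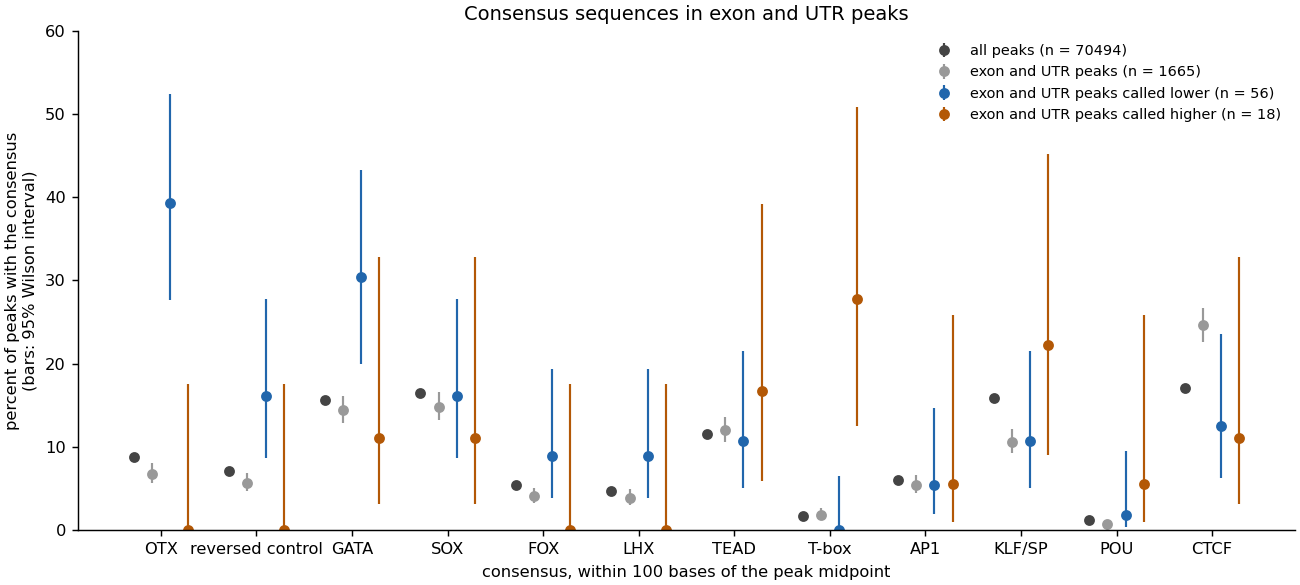
Percent of peaks with each consensus within 100 bases of the midpoint (y) for all peaks, exon and UTR peaks, and those called lower or higher in dTAG13, with 95% Wilson intervals. The OTX consensus is in 39.3% of called-lower and 0 of 18 called-higher peaks, and the T-box consensus in 27.8% of called-higher and 0 of 56 called-lower peaks.

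Members were looked up at genes of endoderm, streak, pluripotency, patterning and chromatin lists. Of 37 listed endoderm and foregut genes 1 had a member. Of 31 streak and mesoderm genes, 2 had members. They were Lef1, a WNT effector (nearest start Gm42449), with 2 exon peaks at 2.67 (SE 0.95, adjusted p 0.0701) and -1.92 in the authors' deposited table, and Twist1, at 0.55. The peak of Twist1 lies in the neighbouring gene Hdac9. Of 24 pluripotency genes 1 had members, the DNA methyltransferase Dnmt3a, at 2.42 and 0.41 in the authors' deposited table. Of 45 homeobox and patterning genes 3 had a member (Lhx5 -0.76, Msx2 -0.68 and Irx1 -0.04 in the authors' deposited table, with that of Msx2 in an exon of Gm2762 and Gm27199 as nearest start for Lhx5). Of 35 chromatin and transcription genes 3 had a member, among them the histone demethylase Kdm6b at -0.04 and the histone methyltransferase Setd1b at -0.03 in the authors' deposited table. None of these 12 peaks passed the test. Of all tested peaks 5.26% were called in either direction, so that 12 peaks are too few to set these lists apart from the background.

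Families of genes with related names were counted as well. The background for each family is the share of all tested peaks, 3.79% lower and 1.47% higher. Of 29 peaks at solute carriers, 3 were lower and 0 higher (10.3%; all tested members 3.42% lower), with a median of -0.65. The median over all peaks was -0.18. The 3 were Slc17a9, the vesicular nucleotide transporter, Slc26a11, an anion transporter, and Slc13a2, a dicarboxylate transporter (nearest start Slc13a2os). Of 22 peaks at genes with symbols like those of collagens, laminins and integrins (Itgb3bp included), 4 were lower (18.2%), with a median of -0.63. Among the 4 were Itga8, Col8a2 (nearest start Adprhl2) and Col13a1. In this family 1 peak was higher (Col23a1). The call of Col13a1 was lost when weak peaks were not filtered (adjusted p 0.051). With the median of all peaks set to 0, Col13a1 and Col8a2 had an adjusted p of 0.089 and 0.0504. With each GC decile centred, Itga8, Col13a1 and Col8a2 all missed the threshold (0.369, 0.0895 and 0.0513). Of 15 peaks at Zfp genes 1 was lower (6.67%), in the 3' UTR of Zfp651 (nearest start Klhl40). Its adjusted p was 0.0576 with the median of all peaks set to 0. Of 9 peaks at cadherins and protocadherins 0 were called. Of 9 at genes whose symbols start like those of ribosomal proteins, pseudogenes included, 1 was lower (11.1%). That peak is nearest to the start of Rps26 but lies in the 3' UTR of Ikzf4, a zinc finger gene of the Ikaros family, and its adjusted p after that centring was 0.0706.

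The authors' deposited table also marks genes as down or up in expression, from a source not analysed here. Down-marked genes had 38 members, 2.28% of the members against 2.86% of all peaks, of which 3 of 37 tested were called lower (8.11%) and 1 higher. Over all peaks at down-marked genes, 9.65% were lower and 0.754% higher. Up-marked genes had 44 members (2.64% against 3.01%), with 3 of 43 tested lower (6.98%) and 2 higher. Over all peaks at up-marked genes, 2.73% were lower and 2.25% higher. By nearest start, the lower peaks at down-marked genes were Myof, Slc17a9 and Tet2, and those at up-marked genes were Adamts9, Apbb2 and Arid3b. The peak assigned to Adamts9 lies in the 3' UTR of A730049H05Rik. With each GC decile centred, the adjusted p at Adamts9, Apbb2 and Arid3b was 0.142, 0.0796 and 0.142, so that none of the 3 passed. Of the higher peaks, Etv5 is down-marked and Csf1 and Oat are up-marked. The call at Oat was lost with the peaks of both lists centred (adjusted p 0.0674).

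Presence in the peak lists pooled by group followed that of all peaks. Both lists held 768 members (46.1%), the DMSO list alone 680 (40.8%) and the dTAG13 list alone 217 (13%), against 48.2%, 40.1% and 11.8% of all peaks. The members belong to 1491 genes bearing the exon or UTR, of which 146 held more than 1 member and none held more than 1 called member.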

How the data were processed

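Accessibility was measured by ATAC-seq in 6 libraries, 3 with DMSO and 3 with dTAG13. The submitters' processing notes name fastp, Bowtie2, MACS2, featureCounts, HOMER 4.11, ChIPseeker and build mm10, with no role given; read filters, duplicate handling and any shift of read ends are not given in the sources used here. Peak lists were pooled by group, per the file names. The authors deposited, as signal per peak, a mean of counts normalized by size factors over all libraries, as the DESeq2 column names denote. Its log2 fold changes (dTAG13 over DMSO) and standard errors are as the authors deposited them. The deposited score equals the log2 fold change over its standard error (largest difference 8.72e-07). The p-values that the authors deposited follow from that score by a two-sided Wald test, the test of DESeq2, and the adjusted ones a Benjamini-Hochberg adjustment over 69128 peaks (largest difference 5.26e-08). The 1366 peaks without an adjusted p have a mean count of at most 1.87, and include 27 members. Depth per library is unknown.

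Calls were counted as deposited, without a new test, since the table has no value per library. Group means assume equal weight of both groups: their average is the deposited mean and their ratio the deposited fold change. A group under 0.25 normalized counts was treated as 0, and its fold computed against a floor of 3 normalized counts per library. Locations were compared with GENCODE mouse release 21, and sequences read from GRCm38.p6, the assembly of mm10, in which no peak ran past a chromosome's end. Positions are 1-based. Consensus sequences were searched in the 100 bases on either side of the midpoint. Overlap with a pooled list needs at least 1 base. Intervals are 95% Wilson intervals, for counting error only. Gene families were matched by the start of the symbol, in the nearest-start or exon-bearing gene. The functions were tested on simulated data.

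Named peaks are, by class and direction, the 5 called with the smallest adjusted p, by direction the 5 called with the largest change, and the 5 with the highest mean count; sequences are those of their OTX sites. Other named peaks and sequences, and the T-box consensus, were chosen after their values were seen. The members, gene lists and consensus sequences were chosen with earlier results of these data known. A few peaks counted in the totals are not reported here one by one. Alternatives covered the zero point, the filter on weak peaks, the threshold, the membership, the overlap and the motif window. Python 3.11.15, numpy 2.4.6, pandas 2.3.3, scipy 1.17.1 and matplotlib 3.10.9 were used.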

Additional observations from a re-analysis of the deposited data

How the results depend on the processing

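The counts moved with both the zero point of the fold changes and the threshold. With the median of all peaks (-0.18) moved to 0, 44 members were lower and 41 higher, and their median log2 fold change was 0.01. With each GC decile centred (decile medians -0.91 to 0.04), 38 were lower and 43 higher, with a median of 0.00. With peaks of both lists centred (0.09), 68 were lower and 15 higher. In this order the share called was 5.19%, 4.95% and 5.07% of members, against 5.81%, 5.26% and 5.71% of all peaks. Of the 56 lower calls, 22 were lost under at least 1 of these centrings, 12 under the first and 18 under the second, and 3 of the 18 higher calls were lost under the third (Atoh8, Oat and Akna, nearest start Orm2). Testing only peaks with mean counts of at least 10 gave 28 lower and 11 higher members and a median of -0.04. The share called was then 7.89% of members against 6.9% of all peaks, so that the order of the main result was reversed. An adjusted p under 0.01 gave 25 and 6 (1.89% of members called against 1.75% of all peaks). One under 0.1 gave 95 and 45 (8.55% against 9.1%). Members with the midpoint in an exon, an alternative added after seeing the data, held 37 and 10 calls. The OTX share of members was 3.96% with 50 bases and 11.8% with 200 bases on each side. That of called-lower members was 26.8% with 50 bases, and 16.1% for the reversed letters. Counts stayed within 1.5 times the reported ones with no filter, with an absolute log2 change of at least 1, without peaks near start sites and with exon overlap required. No paired analysis was possible because a peak has 1 deposited mean and 1 fold change, with no value per library, and for the same reason no library could be left out. Low counts limit most peaks: 35 of the 56 lower calls had an implied dTAG13 mean of at most 3 normalized counts.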

Other observations

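Exons that belong to noncoding or retained-intron transcripts held 15 of the 37 lower calls of the exon class. Of 223 tested peaks in exons of noncoding transcripts 10 were lower (4.48%, 95% Wilson interval 2.45 to 8.06), of 73 in retained-intron transcripts 5 (6.85%, 2.96 to 15.1), and of 644 in protein-coding transcripts 22 (3.42%, 2.27 to 5.12). The intervals overlap. The following peaks were chosen after their values were seen. Of the retained-intron group, Kcnn3, a calcium-activated potassium channel gene, had implied means of 40.0 normalized counts in DMSO and 15.9 in dTAG13. This peak holds a GGATTA site in noncoding exon sequence, and its adjusted p was 0.0511 with each GC decile centred. In Adam23, a cell surface protein of the ADAM family, the means were 11.9 and 0.765. In the 3' UTR of Srebf2, the regulator of cholesterol synthesis genes whose intron holds Mir33, the signal rose from an implied mean of 1.66 to 11.8 (adjusted p of 0.0367 by the authors' deposited table). The promoter peak of Srebf2 had a log2 fold change of 0.12.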
